A study of Drosophila melanogaster with 19 samples.

Results

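Control Drosophila melanogaster embryos early in cycle 14 (C14E) were compared with control embryos of cycle 13 (C13), gene by gene, in polyadenylated RNA sequenced from single embryos. The comparison used 6 of the 19 embryos of the experiment, 3 in C13 and 3 in C14E, all from flies whose nuclei carry a red fluorescent histone (H2AvD-RFP). None of the 6 had been injected, so they carry no cyclin RNA interference. The remaining embryos of the experiment were controls of cycle 12 (C12) and late cycle 14 (C14L) and embryos arrested in cycle 12. Stages were read from films of the nuclei, and C14E embryos were taken at about 10 minutes into cycle 14. Whole embryos were used, so a transcript lost from some cells and a transcript lowered in every cell cannot be told apart.

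In the fly embryo the first nuclear cycles are fast, run without cell membranes and draw on RNA and protein laid down by the mother. At the mid-blastula transition, as cycle 14 begins, interphase lengthens, membranes grow down between the nuclei (cellularization), maternal RNAs are removed and many zygotic genes are transcribed to high level. C13 and C14E lie on the near and the far side of that change, and the comparison asks which transcripts differ across it in undisturbed embryos.

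The deposited table held 17735 genes and gave each condition as the log2 of its mean CPM plus 1, where CPM is a gene's reads scaled to 1000000 reads assigned to genes. A mean has no replicate error, so differences between means are descriptions, and a gene was called higher or lower when the fold between means on that scale exceeded 1.5. Whole reads of the 3 embryos behind a mean could be solved for from its 9 decimals, but only at low level, up to about 10 CPM in C13 and to between 2 and 5 CPM in C14E. At high level no single-embryo value was obtained. The assigned reads of an embryo ran from 35957712 to 53158643 in C13 and from 41857204 to 45620091 in C14E, so that 1 CPM stood for 35.96 to 53.2 reads.

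One embryo stood apart among the C14E embryos. Over the 1508 genes solved there with at least 0.5 CPM, replicate 1 was the highest of the 3 embryos for 872 genes (57.8%) and replicate 3 for 211 (13.99%). Over the 763 of these genes whose mean was higher again in C14L, replicate 1 was the highest for 538 (70.5%) and replicate 3 the lowest for 496 (65.0%). Replicate 1 exceeded both others by more than 3-fold at 50 of those 763 genes, against 3 genes for replicate 2 and 1 for replicate 3. In C13, replicate 2 was the highest embryo for 764 of 1692 genes (45.2%). Over the 1185 genes solved in all 6 embryos with a mean of at least 0.5 CPM, Pearson's r between C13 embryos ran from 0.82 to 0.90. Between C14E embryos it ran from 0.57 to 0.60 and did not single out replicate 1. These values describe genes sharing a library rather than independent points. The genes reached 12.2 CPM in C13 but only 7.29 CPM in C14E, so r cannot be compared between the conditions. The age of each single embryo was not given, and its part in this spread was not tested.

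**Figure D1:**
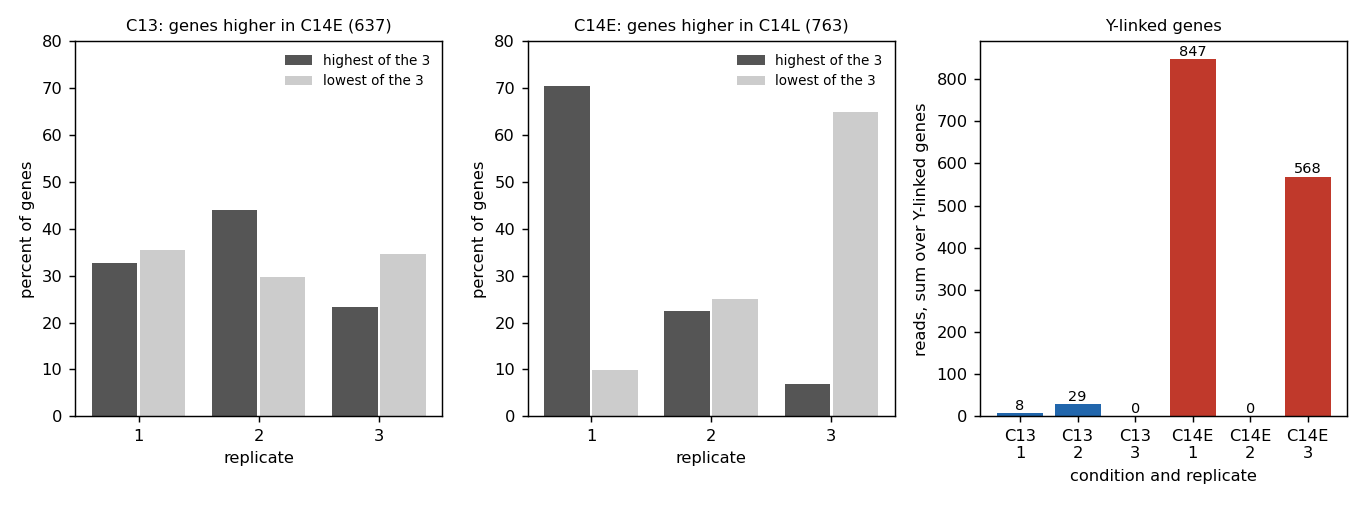
Bars in the left and middle panels give the percent of genes for which each embryo (x axis, replicate number) was the highest (dark) or lowest (light) of its 3, for 637 genes in C13 and 763 genes in C14E. The right panel gives reads summed over Y-linked genes in each of the 6 embryos: 8, 29 and 0 in C13 and 847, 0 and 568 in C14E.

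Across all genes, 2083 (11.7%) were higher in C14E than in C13 and 2550 (14.4%) were lower. Of the 5670 genes that reached 10 CPM in C13 or C14E, 988 (17.4%) were higher and 2174 (38.3%) were lower. The median difference of the 4463 genes at 10 CPM or more on both sides was -0.26 on the log2 scale. When that median was set to 0, the split turned to 2994 higher and 1976 lower genes, so which direction held more genes depended on the scaling. Named members whose call rests on this shift are given as such below.

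The genes higher in C14E took 8.21% of all CPM in C13 and 22.9% in C14E, and the genes lower in C14E went from 23.0% to 8.70%. In C12 the same sets held 9.12% and 30.6%, and in C14L 25.2% and 10.49%. In the 5670 genes that reached 10 CPM, 458 were more than 4-fold higher and 605 more than 4-fold lower, whereas 170 were more than 16-fold higher and 53 more than 16-fold lower. The number of genes listed at 0 went from 7687 in C13 to 5760 in C14E. No gene with 10 CPM or more in C13 was at 0 in C14E.

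**Figure D2:**
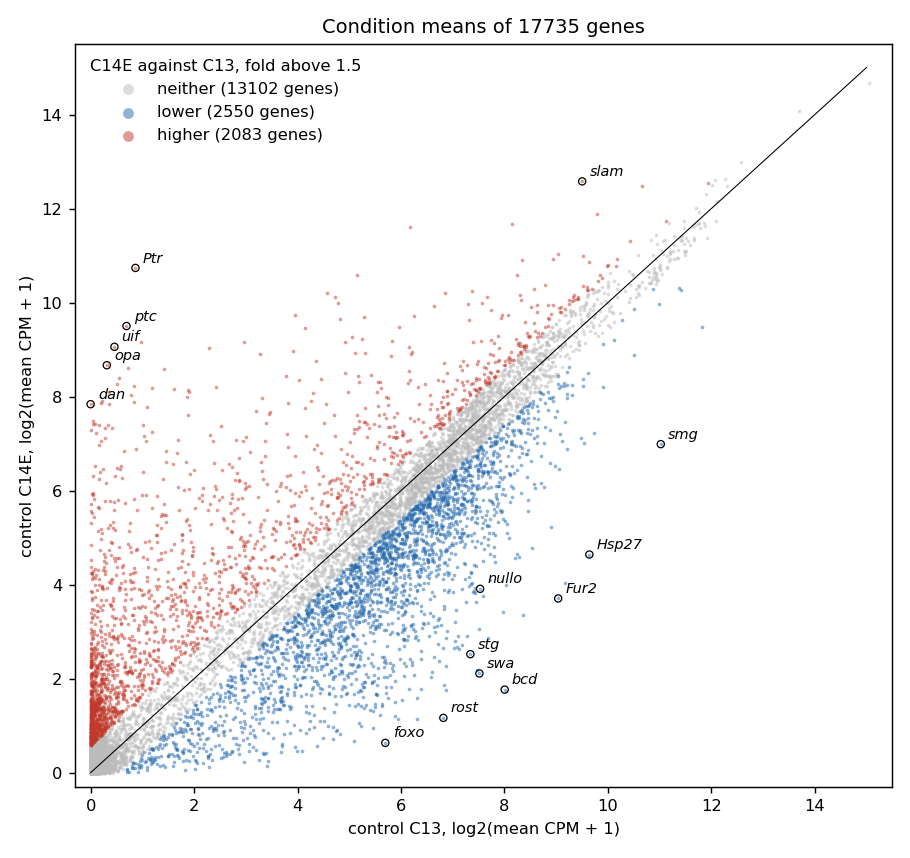
Each point is a gene, with log2(mean CPM + 1) in control C13 on the x axis and in control C14E on the y axis. Red marks the 2083 higher genes, blue the 2550 lower genes and grey the other 13102, and the column of red points near 0 on the x axis holds genes with almost no reads in C13, such as Ptr and dan.

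On the log2(CPM + 1) scale, which sets the ranking, the largest increases belonged to genes with almost no RNA in C13. Ptr (FBgn0262867, chromosome arm 2R, 6181748 to 6196320, minus strand, dm6), which encodes a Patched-related membrane protein, had 0.598, 0.612 and 1.26 CPM in the 3 C13 embryos, or 28, 22 and 67 reads. Its mean was 1705 CPM in C14E, 2071-fold above the C13 mean. The C13 mean is so low that each of its 3 embryos must be low, so these embryo values are no separate support for the rise. ptc (FBgn0003892, 2R, 8649649 to 8665223, plus strand), the Hedgehog receptor, went from 0.617 to 723 CPM, uif, a transmembrane protein with EGF repeats, from 0.376 to 532 CPM, and opa, a zinc-finger pair-rule factor, from 0.242 to 405 CPM.

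The other 8 of the 12 largest increases were CG15628, wake, lov, dan, Gp150, grh, CG4415 and robo2. dan (3R, 25184383 to 25192806, plus strand), a pipsqueak-family nuclear factor, had 0 reads in each C13 embryo and 228 CPM in C14E, which is at least 10320-fold higher when the 3 C13 embryos together are given a floor of 3 reads (0.0221 CPM). grh, the Grainyhead factor of epidermal genes, went from 0.281 to 274 CPM, and robo2, a Slit receptor, from 0.1503 to 230 CPM. For grh and robo2, 19.1% and 41.04% of the exon bases are shared with another annotated gene. Their later levels differed: lov was at 338 CPM in C14E and 76.0 in C14L, and CG4415 went from 239 CPM in C14E to 3.34 in C14L, while uif, CG15628, dan, Gp150 and robo2 were more than 2-fold higher again in C14L.

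There were 170 genes under 1 CPM in C13 with at least 10 CPM in C14E, and 30 of them reached 100 CPM. Of these, 9 had no read in any C13 embryo, and they were dan, knrl, Blimp-1, nkd, hth, mus308, otk, comm and CG5002. The last 5 were named after their values were seen. nkd, a feedback inhibitor of Wingless signalling, was at 155 CPM in C14E, at least 7033-fold above the floor, and knrl, a nuclear receptor paralogous to kni, was at 51.2 CPM, at least 2322-fold above it. Blimp-1, a zinc-finger repressor, was at 46.7 CPM and at least 2115-fold above it.

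The largest decreases, on the same log2 scale, were led by bcd. bcd (FBgn0000166, 3R, 6755842 to 6759466, minus strand), the anterior determinant, stood at 330 CPM in C12, was at 256 CPM in C13 and 2.40 CPM in C14E, and ended at 0.453 CPM in C14L. C14E kept 0.940% of the C13 level, a 106-fold difference. swa, whose product is needed to localise bcd RNA, went from 182 to 3.32 CPM, and the 3 C14E embryos held 2.53, 4.01 and 3.42 CPM. rost, a membrane protein of myoblast fusion, went from 112 CPM to 1.34, 1.28 and 1.12 CPM in the 3 C14E embryos, 89.9-fold lower in the mean. A mean this low keeps each of its 3 embryos low, so the embryo values of swa and rost are no separate support for the fall. bcd could not be solved.

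Among the 12 largest decreases were also Fur2, a furin-type protease (525 to 12.05 CPM), Lsd-2, a lipid-droplet perilipin (574 to 15.4 CPM), Hsp27, a small heat shock protein (797 to 23.9 CPM), and Aef1, a zinc-finger repressor (325 to 9.24 CPM). foxo, the transcription factor of insulin signalling, went from 50.9 CPM to 0.573, 0.774 and 0.307 CPM in the 3 C14E embryos. CG32365 went from 113 CPM to 0.788, 2.69 and 4.43 CPM, a spread of more than 3-fold between C14E embryos. CG18269, CG8180 and DnaJ-H completed the 12. CG18269 alone among them was higher in C13 than in C12, at 177 against 45.2 CPM, before 3.57 CPM in C14E. In all, 29 of the 2203 genes above 100 CPM in C13 were under 10 CPM in C14E.

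Segmentation genes were higher in C14E at nearly every level of the cascade, read against 11.7% of all genes. Gap genes, the first zygotic readers of the maternal gradients, were higher in 7 of 7 cases with a median difference of 2.61 (log2), where the median over all genes was 0 and over the 5670 genes that reached 10 CPM -0.30. Kr went from 30.7 to 273 CPM, kni from 35.2 to 315, gt from 46.1 to 222 and tll from 35.7 to 178. hb, which is also maternal, had the smallest difference, from 210 to 319 CPM, and no gap gene other than knrl was under 10 CPM in C13. Head gap genes were higher in 4 of 5 cases. ems went from 0.513, 1.45 and 2.37 CPM in the C13 embryos to a mean of 58.4 CPM, oc from 1.11, 0.501 and 1.69 to 59.2, and croc from 1.07, 1.34 and 5.08 to 63.9. slp1 went from 56.2 to 81.0 CPM and was called higher only after centring on the median.

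Pair-rule genes, which set the periodicity of the segments, were higher in 11 of 11 cases, by a median of 2.92. eve went from 39.7 to 139 CPM, ftz from 43.4 to 171, h from 21.8 to 172 and run from 45.2 to 118. odd had 7.60, 4.89 and 12.1 CPM in the 3 C13 embryos and a mean of 205 CPM in C14E. prd had 4.70, 5.01 and 8.58 CPM and a mean of 82.3 in C14E. Replicate 3 was the highest C13 embryo for both genes. drm, at 0.256, 0.667 and 1.22 CPM in C13 and 4.53 CPM in C14E, was still far below its C14L mean of 165 CPM.

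Segment polarity genes, which fix the compartment borders within segments, were higher in 7 of 7 cases, but they fell into a high and a low class. ptc and nkd stood above 150 CPM in C14E, and wg, the Wingless ligand, was at 13.7 CPM. en, inv, hh and gsb were all under 3 CPM. inv, the paralog of en, had 0.192, 0.389 and 0.188 CPM in the C13 embryos and 1.86, 1.46 and 1.73 CPM in the C14E embryos. gsb had 0, 0 and 0.1505 CPM in C13 and 1.003, 1.23 and 1.32 CPM in C14E. For both genes every C14E embryo lay above every C13 embryo. en, the selector of the posterior compartment, had 0.0854, 0.0556 and 0.226 CPM in C13 and 1.12, 1.27 and 0.219 CPM in C14E, so replicate 3 of C14E lay within the C13 range.

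The spread between embryos allowed a test at this low level. limma on log2(CPM + 1), over the 1185 genes solved in all 6 embryos with a mean of at least 0.5 CPM, called 467 genes (39.4%) higher and 258 (21.8%) lower in C14E at an adjusted p below 0.05, and the groups did not overlap in 472 (39.8%) and 285 (24.1%) genes. Without replicate 1 of C14E the counts were 409 and 226. The genes that could be solved reached 12.2 CPM in C13 but only 7.29 CPM in C14E, so these shares do not stand for the table as a whole. Of the tested genes that the means called higher, 466 of 504 passed the test, and of those called lower, 254 of 318. The means and the test rest on the same 6 embryos, so these counts are no independent support for the calls. inv rose by 1.10 ± 0.23 (log2, SE, limma adjusted p = 0.0014, n = 3 against 3) and gsb by 1.06 ± 0.21 (limma adjusted p = 0.00085). hh, the Hedgehog ligand, had 0.470, 1.06 and 1.13 CPM in C13 and 5.73, 0.728 and 1.32 CPM in C14E. Replicates 1 and 3 lay above all C13 embryos and replicate 2 did not, and the difference of 0.69 ± 0.43 did not pass (limma adjusted p = 0.18). Without replicate 1 the mean of C14E was 1.02 CPM and hh was not called.

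Hox genes, which give segments their identity, were barely started in C14E. By the means, 7 of 8 were higher, beside 11.7% of all genes (pb was not called without replicate 1 of C14E). But only abd-A reached 10 CPM, at 11.1 CPM from 0.384, 0.222 and 0.263 CPM in the C13 embryos. Dfd was at 8.01 CPM from 0, 0.111 and 0.0752. Ubx had no read in any C13 embryo and 3.27, 1.43 and 1.14 CPM in C14E, a rise of 1.49 ± 0.27 (limma adjusted p = 0.00056), at least 88.3-fold above the floor in the mean. Antp went from 0, 0 and 0.169 CPM to 1.63, 1.34 and 1.07 CPM, a rise of 1.15 ± 0.21 (limma adjusted p = 0.00066), with 50.1% of its exon bases shared with another gene. Neither gene overlapped between the stages. Scr, which had no read in C13, had 0.430, 0.137 and 0 CPM in C14E and was not called. In C14L all Hox genes but pb were above their C14E means, Antp at 69.1 CPM.

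**Figure D3:**
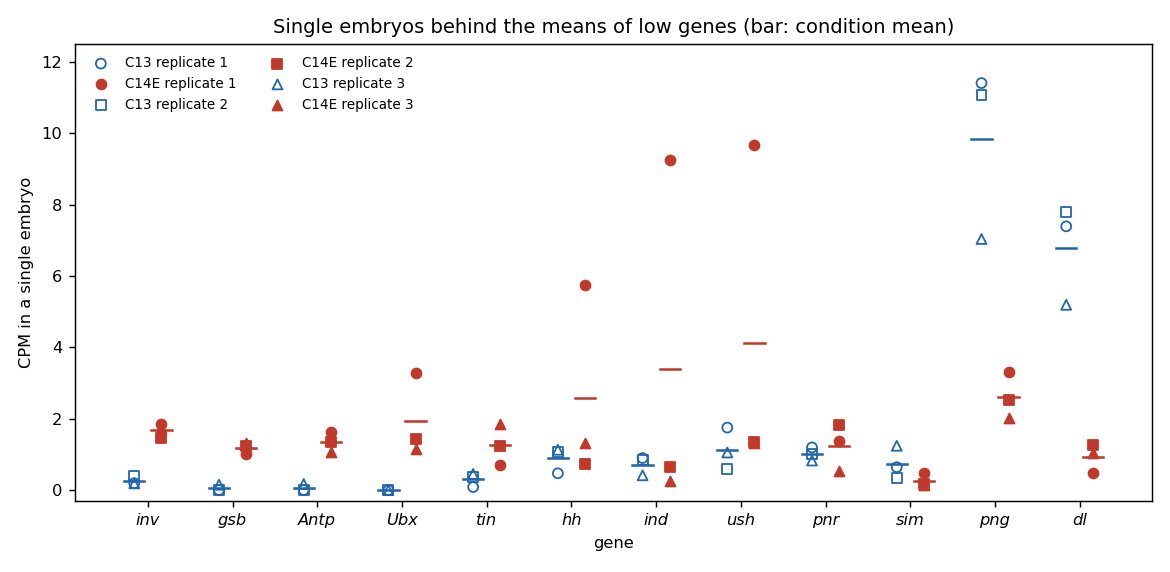
CPM in single embryos (y axis) of 12 genes, with open blue symbols for C13 and filled red symbols for C14E, a shape for each replicate and a bar at each condition mean. For inv, gsb, Antp and Ubx all 3 C14E embryos lay above all C13 embryos, for hh, ind and ush the C14E mean was carried by replicate 1, and for png and dl all 3 C14E embryos lay below.

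Along the dorsoventral axis the genes of the ventral and lateral regions were mostly higher, again read against 11.7% of all genes. Mesoderm genes were higher in 6 of 7 cases. twi and sna, the ventral factors that start mesoderm formation, went from 41.6 to 351 and from 35.6 to 164 CPM. htl, an FGF receptor, and stumps, its adaptor, went from 0.652 and 0.0393 CPM to 28.1 and 42.6 CPM. tin, a mesoderm homeobox gene, had 0.0854, 0.362 and 0.451 CPM in C13 and 0.717, 1.23 and 1.86 CPM in C14E and rose by 0.78 ± 0.25 (limma adjusted p = 0.016). Mef2, a muscle factor whose RNA is also maternal, was the exception: it was at 34.8 CPM in C13, at 2.41, 1.502 and 1.403 CPM in the C14E embryos and at 82.3 CPM in C14L.

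Neuroectoderm genes were higher in 8 of 9 cases, with the largest list median, 4.77. sog, a secreted antagonist of Dpp, went from 1.15, 0.167 and 1.05 CPM in C13 to 300 CPM, a 379-fold difference of means. pros, a factor of neural differentiation, went from 0.124 to 167 CPM, SoxN from 1.05 to 141, brk, a repressor of Dpp targets, from 2.60 to 97.1, and vnd, the ventral column factor, from 0.797 to 55.2. ind, the factor of the intermediate column, had 0.897, 0.834 and 0.414 CPM in C13 and 9.25, 0.637 and 0.263 CPM in C14E. Its mean was higher, but replicates 2 and 3 lay within or below the C13 range, and the difference of 0.70 ± 0.58 did not pass (limma adjusted p = 0.31). Without replicate 1 the mean of C14E was 0.450 CPM, below that of C13. sim, the midline factor, had 0.641, 0.334 and 1.24 CPM in C13 and 0.478, 0.182 and 0.132 in C14E (limma adjusted p = 0.13), before reaching 57.8 CPM in C14L.

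Of 12 dorsal ectoderm genes, 8 were higher and 2 lower, beside 11.7% and 14.4% of all genes. The shares were 17.4% and 38.3% of genes that reached 10 CPM, as 10 of the 12 did. dpp, the dorsal BMP ligand, had 6.66, 6.95 and 12.9 CPM in C13 and 96.4 CPM in C14E, and tld, the protease that releases it, went from 51.1 to 255 CPM. tup and the T-box genes Doc1, Doc2 and Doc3 went from 5.59 CPM or less to between 14.5 and 44.9 CPM. scw, another BMP ligand, and zen2, a paralog of zen, were lower, from 233 to 52.3 and from 37.0 to 2.70 CPM, while zen itself went from 64.7 to 103 CPM. ush had 1.75, 0.584 and 1.05 CPM in C13 and 9.68, 1.34 and 1.32 CPM in C14E, with replicate 1 again far above the others (0.90 ± 0.51, limma adjusted p = 0.14). Without it the mean was 1.33 CPM and ush was not called. pnr, its partner, had 1.196, 1.001 and 0.828 CPM in C13 and 1.39, 1.82 and 0.526 CPM in C14E (limma adjusted p = 0.74), and it reached 119 CPM only in C14L.

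**Figure D4:**
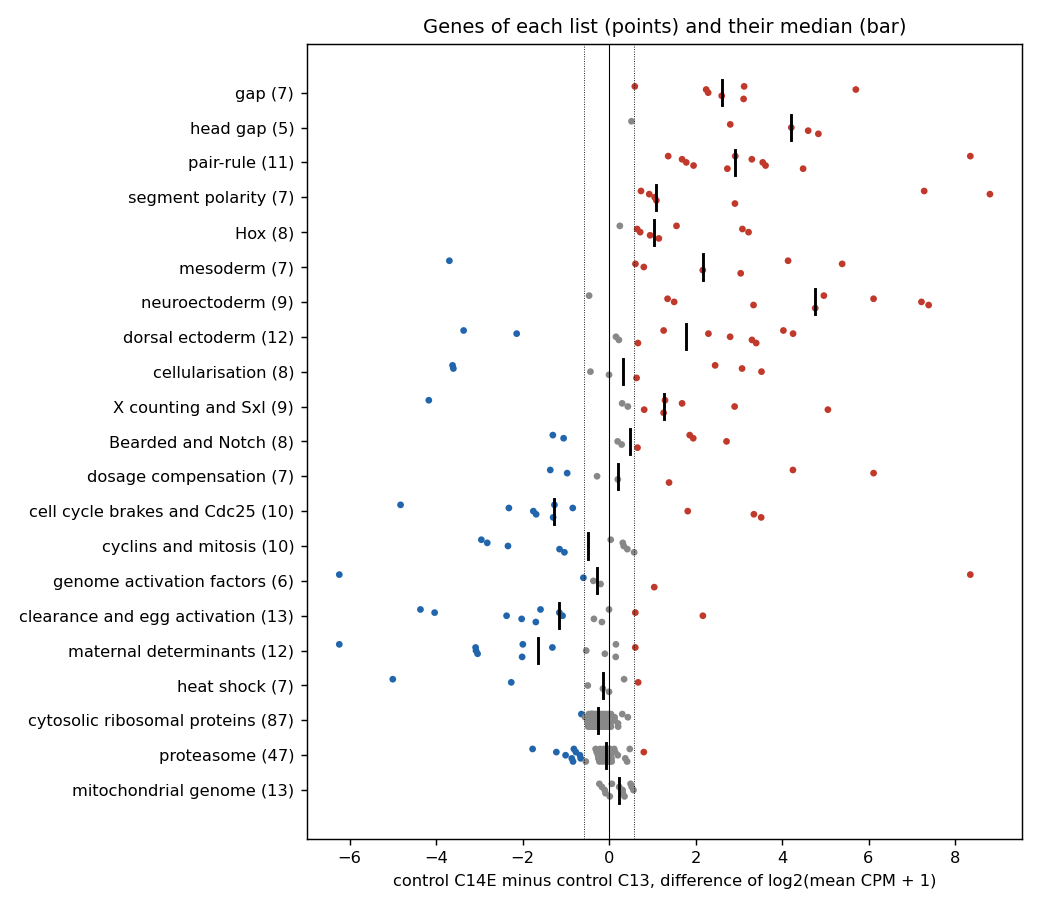
Points give the difference of log2(mean CPM + 1), C14E minus C13 (x axis), for each gene of 21 lists (y axis, list size in brackets), red when called higher, blue when called lower and grey otherwise, with a black bar at the list median and dotted lines at a fold of 1.5. Medians of the patterning lists lie to the right of 0 and those of the egg activation and maternal determinant lists to the left, with single members on the other side such as Mef2, zen2, scw and Slbp, and ribosomal proteins in a narrow band around their median of -0.26.

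Genes of cellularization peaked on different sides of the boundary. slam (2L, 6372388 to 6377284, plus strand), which organises the furrow membrane, went from 724 CPM in C13 to 6112 CPM in C14E and was at 4.86 CPM in C14L. Nrt, a cell adhesion glycoprotein, went from 281 to 3243 CPM, halo, a regulator of lipid-droplet transport, from 202 to 1111, and bnk, of the actin network of the furrow, from 395 to 615. nullo (X, 7049476 to 7050321, plus strand), of the same actin network, was highest in C13 at 184 CPM and at 14.04 CPM in C14E. fog, a secreted signal for apical constriction at gastrulation, went from 132 to 10.005 CPM, and T48, a membrane protein of the same process, from 13.2 to 9.53. Sry-alpha was listed at 0 in every control condition, and all of its exon bases are shared with another gene, as are those of cup and Hsp22, which were also at 0.

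Other early zygotic genes were higher in 9 of 10 cases, beside 17.4% of genes that reached 10 CPM, as all 10 did. Bsg25D went from 525 to 2109 CPM, term from 379 to 1242, Bsg25A from 492 to 990 and SNCF from 213 to 592. fkh, the forkhead factor of the gut ends, had 0, 0.334 and 0.113 CPM in the C13 embryos and 131 CPM in C14E. amos, a proneural factor, was the exception, from 154 to 6.52 CPM. Several genes thus had their highest control mean in C13: amos, nullo, scw, zen2 and sc. In the Bearded and Notch list 4 of 8 were higher, with Tom from 47.4 to 318 CPM. The 2 lower genes were E(spl)m4-BFM, from 61.1 to 24.2 CPM, and N, the receptor, from 230 to 111 CPM. Of all genes 11.7% were higher and 14.4% lower. The shares were 17.4% and 38.3% of genes that reached 10 CPM, as 7 of the 8 did. E(spl)malpha-BFM, one of the 4 higher genes, did not pass the test described above (limma adjusted p = 0.11) and was not called without replicate 1 of C14E.

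**Figure D5:**
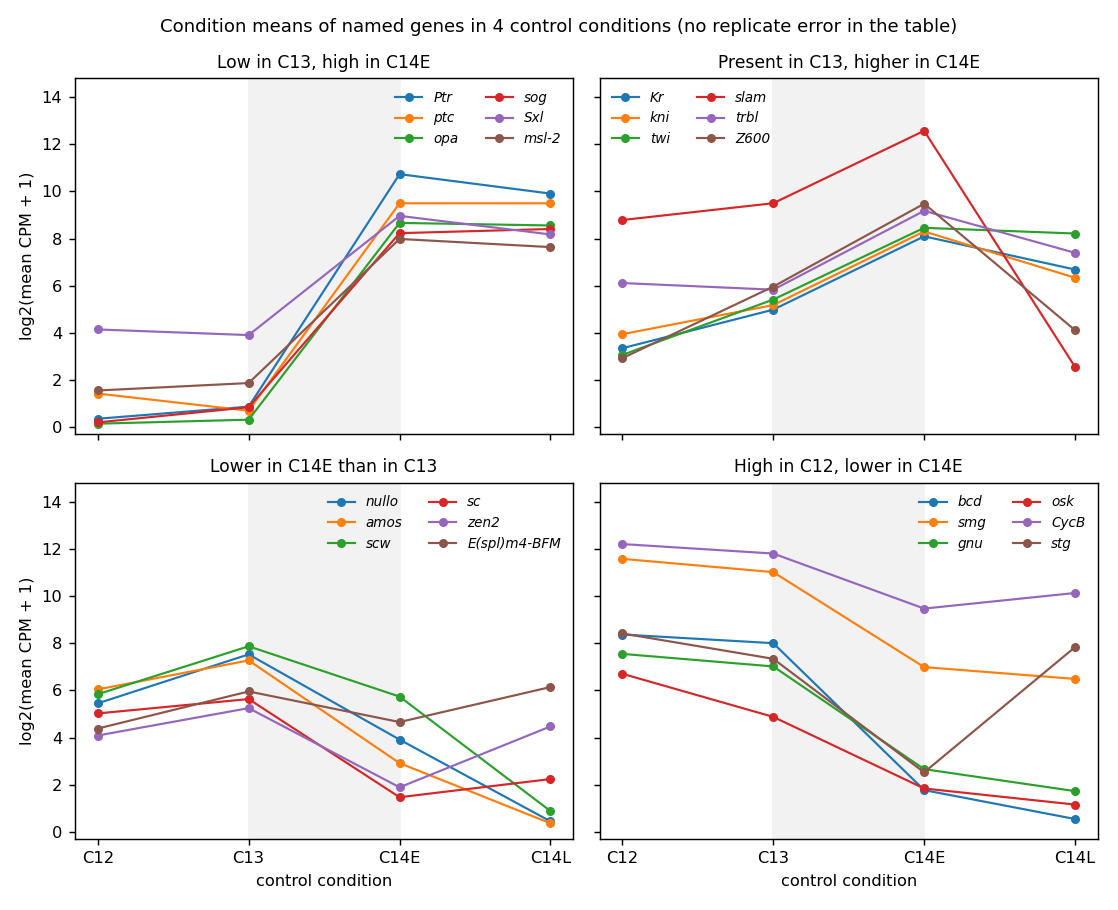
Lines join the log2(mean CPM + 1) (y axis) of 24 genes over the 4 control conditions (x axis), with the step from C13 to C14E shaded. The top panels show genes higher in C14E, among them slam, which was at 6112 CPM in C14E and 4.86 CPM in C14L. The bottom panels show genes lower in C14E, of which stg, zen2, E(spl)m4-BFM, CycB and sc were higher again in C14L.

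X-chromosome counting, by which female embryos switch on Sxl, was represented by 9 genes, of which 6 were higher and 1 lower. All 9 reached 10 CPM, where 17.4% of genes were higher and 38.3% lower. Sxl (X, 7074550 to 7098053, minus strand), the sex switch, went from 13.98 to 499 CPM. Of the X-linked signal genes, sisA went from 23.9 to 60.2 CPM and upd1 from 25.2 to 195, whereas sc went from 48.6 CPM to 1.15, 2.64 and 1.49 CPM in the 3 C14E embryos. dpn, the autosomal repressor of Sxl, went from 10.4 to 13.1 CPM, with 59.3% of its exon bases shared with another gene. her, a maternal regulator, was called higher only after centring.

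Dosage compensation raises the output of the male X through the MSL complex and its roX RNAs. msl-2, the subunit made in males, had 1.41, 1.89 and 4.65 CPM in the C13 embryos and a mean of 252 CPM in C14E, 95.3-fold higher. roX1 went from 29.1 to 572 CPM, mle, the helicase subunit, from 53.7 to 142, and msl-1 and msl-3, both maternal, were lower, from 334 to 130 and from 75.3 to 37.99 CPM. roX2 had no read in C13 and 0.0956, 0.182 and 0.175 CPM in the C14E embryos.

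Reads on the Y chromosome separated the C14E embryos. All 113 Y-linked genes of the table could be solved in all 6 embryos. Their reads summed to 847 in replicate 1 and 568 in replicate 3 of C14E, over 40 and 28 genes. Replicate 2 had 0 reads on every one of them, which allows up to 0.0683 CPM in all. In C13 the sums were 8, 29 and 0 reads, the last of which allows up to 0.0564 CPM. CR40801 had 0 reads in the 3 C13 embryos and 189, 0 and 103 reads in C14E, CR41423 had 0 in C13 and 133, 0 and 156 in C14E, and CR46150 had 0 in C13 and 94, 0 and 79 in C14E. FDY, a protein-coding gene that came to the Y by duplication, had 0, 2 and 0 reads in C13 and 92, 0 and 26 in C14E, and its mean went on from 0.923 CPM in C14E to 18.0 CPM in C14L. Su(Ste):CR42426, which belongs to a repeated family and is therefore uncertain under unique alignment, had 70, 0 and 63 reads. The C14E means thus pool embryos with and without Y-linked reads, and the sex of the embryos was not given in the sources used here.

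Chromosomes differed in how their genes were called. Of the 1265 X-linked genes that reached 1 CPM in C13 or C14E, 18.3% were higher and 43.5% lower, beside 24.9% and 34.4% of all 7345 such genes. On the autosomal arms the higher share ran from 24.8% on 3R to 27.2% on 2R and the lower share from 30.3% on 2L to 34.6% on 3R. Of 68 genes on chromosome 4, 30.9% were higher and 19.1% lower. No test was made of these shares.

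Gene length was also described. The 988 higher genes with at least 10 CPM in C14E spanned a median of 4.63 kb from first to last annotated base, the 2174 lower genes with at least 10 CPM in C13 3.03 kb and all 5670 genes 2.95 kb. The 170 higher genes under 1 CPM in C13 had a median span of 7.67 kb, with an upper quartile of 23.1 kb. The 314 at 1 to 10 CPM in C13 had 3.57 kb, and the 504 at 10 CPM or more 4.95 kb. Of the lower genes, the 25 under 1 CPM in C14E had a median of 7.76 kb, with an upper quartile of 14.3 kb. The 646 at 1 to 10 CPM in C14E had 2.90 kb, and the 1503 at 10 CPM or more 3.17 kb. A long median span was thus not particular to the higher genes. Among the 12 largest increases the span ran from 1.44 kb (CG4415) to 53.8 kb (lov). wake, grh and robo2 spanned 44.0, 41.7 and 40.4 kb, and CG15628, dan and Gp150 7.17, 8.42 and 11.8 kb. Genes without an intron made up 7.63% of the higher genes and 8.34% of the 5670 genes that reached 10 CPM. At a limit of 1 CPM the order was the reverse, with 10.4% of the higher genes and 9.48% of all genes.

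Regulators of the cell cycle pause differed in both directions. stg (3R, 29251826 to 29255800, minus strand) and twe encode the Cdc25 phosphatases that activate Cdk1. stg went from 161 to 4.74 CPM, a 34.0-fold difference, and was back at 228 CPM in C14L, while twe went from 275 to 81.1 CPM and on to 1.56 CPM. trbl, which promotes the loss of the Twine protein, went from 55.9 to 579 CPM, and Z600 (Frühstart), an inhibitor of mitotic cyclin-Cdk1, from 61.4 to 714 CPM and then to 16.3 CPM in C14L. The checkpoint kinase gene grp (Chk1) went from 240 to 47.4 CPM and Wee1 from 149 to 60.4 CPM. lok (Chk2), from 154 to 85.8 CPM, was lower only without centring. mei-41, the ATR kinase, had 0.854, 1.31 and 0.188 CPM in C13 and 5.30 CPM in C14E.

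The mitotic cyclins differed from each other. CycB, the most abundant of them in C13 and the least in C14E, went from 3590 to 710 CPM and CycA from 2040 to 998 CPM, whereas CycB3 went from 1052 to 1573 CPM, a difference of 0.58 that was just under the threshold and past it after centring. CycD, the G1 cyclin, went from 265 to 33.4 CPM and aurA, the Aurora A kinase, from 129 to 17.5 CPM. Cdk1 had 389 and 400 CPM. In this list 5 of 10 genes were lower and 0 were higher. All 10 reached 10 CPM, where 38.3% of genes were lower and 17.4% higher. Centring made CycB3, CycE and polo higher.

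Factors of genome activation showed no common direction. zld, the pioneer factor Zelda, had 662 and 515 CPM and Stat92E 433 and 377 CPM, neither past the threshold. Trl, the GAGA factor, went from 6.994 to 16 CPM, but 77.8% of its exon bases are shared with another gene. cad, from 209 to 138 CPM, was lower only without centring, and bcd and opa, given above, lay at opposite ends of the table.

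Genes of egg activation and RNA clearance were lower in 8 of 13 cases. The share was 14.4% over all genes, but 38.3% over genes that reached 10 CPM, as 11 of the 13 did. smg, which directs the removal of maternal RNAs, went from 2077 to 126 CPM and gnu, of the PNG kinase complex, from 128 to 5.30 CPM. png, the kinase itself, had 11.4, 11.1 and 7.04 CPM in the C13 embryos and 3.30, 2.53 and 2.02 CPM in the C14E embryos and fell by 1.57 ± 0.29 (limma adjusted p = 0.00062). plu, the remaining subunit, went from 70.3 to 12.8 CPM. The repressors me31B and tral went from 2660 to 1262 and from 2715 to 1224 CPM. Slbp, the histone RNA binding protein, was higher, from 38.2 to 176 CPM.

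Maternal determinants of the axes and the germ line were lower in 7 of 12 cases. Of all genes 14.4% were lower, but 38.3% of those that reached 10 CPM, as 10 of the 12 did. osk, which assembles germ plasm, went from 28.4 to 2.57 CPM, with 84.1% of its exon bases shared with another gene, and gcl, of pole cell formation, from 270 to 30.9 CPM. dl, the dorsoventral morphogen, had 7.39, 7.79 and 5.19 CPM in C13 and 0.478, 1.28 and 1.05 CPM in C14E and fell by 2.02 ± 0.32 (limma adjusted p = 0.00031). The groups did not overlap. spz, the ligand of Toll, went from 28.1 CPM to 2.44, 2.64 and 2.28 CPM in the C14E embryos. Not all were lower: Tl itself had 797 and 887 CPM, aub 73.1 and 68.3, and nos, the posterior determinant, went from 63.5 to 97.2 CPM.

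The lists that the study used were read the same way. Of its 1223 purely maternal genes, which the study chose in part on these embryos and which are therefore not independent evidence of direction, 1193 were lower and 0 higher, with a median of -1.87. Their summed level went from 129790 to 37528 CPM. Of 80 genes called N/C-dependent, for their delay in haploid embryos in earlier work, 75 were higher and 2 lower with a median of 3.41, and of 110 called time-dependent 94 were higher and 2 lower with a median of 3.56. Both lists lay far above the 11.7% of all genes, and their median C13 levels were 1.92 and 0.827 CPM. Both were chosen in earlier work by the timing of their expression, so their direction here is not independent of that choice.

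Of 87 cytosolic ribosomal protein genes, 1 was lower and 0 higher, with a median of -0.26, equal to that of the abundant genes, and RpL37A was that gene only without centring. Proteasome genes had a median of -0.07, with 9 of 47 lower (19.1%) and 1 higher. Lower genes made up 14.4% of all genes but 38.3% of those that reached 10 CPM, as 33 of the 47 did. Rpn5 led the lower ones, from 274 to 79.7 CPM, and Rpn11 was higher, from 16.3 to 29.2 CPM. None of the 13 protein-coding genes of the mitochondrial genome was called, and centring made 4 of them higher, mt:ND4L and mt:ND5 among them. Among heat shock genes, Hsp60A went from 71.2 to 14.1 CPM beside Hsp27, and Hsc70-4 had 4944 and 6295 CPM.

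Markers of other tissues bore on the source of the RNA. The 12 follicle and eggshell genes summed to 0.427 CPM in C13 and 0.982 CPM in C14E, with 7 and 8 of them at 0, so RNA of these follicle cell genes was near 0 in both. Muscle markers summed to 0.0185 and 0.172 CPM. Blood markers summed to 2.19 and 112 CPM, nearly all of it srp, a GATA factor of the early embryo that went from 2.39, 1.06 and 3.07 CPM in C13 to 111 CPM, while Pxn had 0.0142 and 0.235 CPM. Hml had no read in C13 and 1.05, 0.592 and 0.307 CPM in the C14E embryos, and it was not called without replicate 1. Of the nervous system markers, elav went from 0.267 to 35.8 CPM, with 34.2% of its exon bases shared with another gene, and nSyb and Syt1 were under 0.5 CPM. Germ plasm markers summed to 508 and 239 CPM. Most of that difference was gcl, at 270 and 30.9 CPM, while nos was higher and pgc and aub were not called.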

How the data were processed

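Polyadenylated RNA of single control embryos was measured in C13 and C14E, with 3 labelled embryos in each. Per the labels and the study's methods, the authors trimmed reads with Trim Galore 0.6.0, aligned them uniquely to dm6 (BDGP6) with STAR 2.5.3a, counted them on genes with featureCounts of Subread 1.6.0 and computed CPM with DESeq2. Whether the counting used strand was not stated. The authors deposited log2 values, log2(mean CPM + 1) per condition to 9 decimals, in 8 columns for 17735 genes. C12 and C14L means are shown for context. The number of columns left out as belonging to other samples was 0. CPM is relative to the library, so total RNA per embryo was not measured.

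The members and gene lists were chosen with earlier results of these data known. Named genes were the 12 largest rises and 12 largest falls among genes that reached 10 CPM in C13 or C14E, the cyclin genes, every member of the lists, and the highest and lowest 2 genes of each list given by a name pattern. Other genes are said to be chosen after their values were seen.

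Whole reads of the 3 embryos behind a mean were solved for with Python 3.11.15, numpy 2.4.6 and numba 0.67.0. Embryo totals started from the depth table of the study and differ from it by at most 0.0490%, which also ties each embryo to its replicate number. A value was kept where exactly 1 set of 3 whole numbers gave the deposited decimals. Up to 5 CPM every C13 value had a single solution, against 93.8% at 5 to 10 CPM and 27.2% at 10 to 15 CPM. In C14E the shares were 100% below 1 CPM, 98.6% at 1 to 2 CPM, 42.9% at 2 to 5 CPM and 1.37% at 5 to 10 CPM. No value was without a solution, whereas a total shifted by 1 read left 296 to 299 of 300 values without one. These reads are inferred, and their precision covers counting error only. Nothing states that embryos came from separate mothers, so p-values measure the spread between these embryos.

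limma 3.58.1 (R 4.3.3) with a trend was run on log2(CPM + 1) of the 1185 genes with 6 embryo values and a mean of at least 0.5 CPM, with Benjamini-Hochberg adjustment over them. The solver and the test were checked on simulated data. Positions, spans and shared exons come from Ensembl release 115 on dm6, in which 99.4% of the genes were found. Promoter motifs were not analysed here. The alternatives were other folds, pseudocounts, filters, scalings and leaving out each embryo.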

Additional observations from a re-analysis of the deposited data

How the results depend on the processing

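No count was made of absolute RNA, and high genes have no replicate error here. The number of genes higher in C14E depended on how low genes enter: it was 1349 at a fold of 2, 3826 with a pseudocount of 0.1, 5510 with 0.001 and 988 of genes that reached 10 CPM, while the number lower stayed within 1.5 times of 2550. Centring on the median of abundant genes gave 2994 higher and 1976 lower. The limma counts were 472 and 260 with a pseudocount of 0.1, and 675 and 211 without the filter on low values. Leaving out each embryo in turn gave 398 to 458 higher and 196 to 245 lower genes, and 409 and 226 without the C14E replicate that stood apart. Alternatives chosen after seeing the data gave the following values. Without that embryo, the means of the tested genes called 453 higher and 341 lower in place of 504 and 318. The replicate block gave 480 higher and 285 lower genes, but deviations of same-numbered embryos correlated above 0.1 in only 1 of 3 pairs (0.0815, 0.0366 and 0.154), so the numbers were not taken to pair them. Leaving out that embryo turned the difference of ind to -0.24, took hh, ush, pb, Hml and E(spl)malpha-BFM below the threshold and made sim lower. No other called difference of a named gene changed sign under the pseudocount of 0.1, centring or without that embryo, and genes whose call rests on centring are named where they are described or are Hsc70-4, Cp18, nSyb, RpS19b and Prosbeta2R2.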
